A study of Caenorhabditis elegans with 11 samples.

Results

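Gene expression was compared between adult Caenorhabditis elegans that had received skn-1 RNAi and high-pressure oxygen (3 arrays) and adults kept without oxidative stress (4 control arrays). The arrays were chosen by their labels and are 7 of the 11 Affymetrix arrays of the study. The other 4 arrays are of worms exposed to oxygen without skn-1 RNAi, and they are used here only for their share in the estimate of the spread and for values set side by side. All probe sets were examined. The skn-1 RNAi arrays are written RNAi 1 to 3 below.

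All worms belong to a strain that is called TJ1060 in the study's design text and TJ1090 in the sample labels; TJ1060 carries mutations in spe-9 and fer-15 that make it sterile at the warm growth temperature. The worms hatched from eggs freed with hypochlorite, grew on peptone plates at 25°C, and were sterile adults of 3 days when used. The oxygen groups spent 6 hours in 99% oxygen at 40 PSI and 20°C in a hyperbaric chamber. The controls were not given this exposure, and a group with skn-1 RNAi and no oxygen is not analysed here. Oxygen, pressure, the temperature step, handling, RNAi and RNAi food therefore cannot be told apart in the difference between RNAi and control arrays. Each array measures RNA from whole worms, so that a change in the number of cells of a type and a change in RNA per cell also cannot be told apart. The sources do not say that the arrays of a group came from separate cultures, so p-values measure the spread between arrays, which may be technical.

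SKN-1 is the worm counterpart of the mammalian Nrf factors. It enters intestinal nuclei under oxidative stress and switches on conjugating enzymes such as glutathione S-transferases, which attach glutathione to reactive molecules, and UDP-glucuronosyltransferases, which attach sugars. Cytochrome P450 enzymes oxidise foreign molecules before this step, and ABC transporters export the products. C. elegans cannot make heme, so it takes heme up from its bacterial food through a dedicated set of hrg genes.

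The signal of each probe set is a linear MAS5 intensity. Total signal lay between 6863650 and 9138000 on the 11 arrays. Control 1 and 2 (with oxygen 1 and 2) had a trimmed mean signal of 207 to 216, against 250 on each of the other 7 arrays, and a median poly-A spike-in signal of 96.7 to 167 against 2.6 to 15.4. Median signal was 27.4 and 28.5 on control 1 and 2, 57.4 and 67.5 on control 3 and 4, and 58.7 to 63.7 on the RNAi arrays. All RNAi arrays are therefore of the same kind as control 3 and 4, and log2 changes against those 2 controls alone are given too. Mean correlation with the other arrays of the group was 0.847 to 0.896 for the controls and 0.940 to 0.941 for the RNAi arrays. The worms are whole adults, and markers of intestine, muscle, nerve, epidermis and germ line were all present (summed signals below).

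No probe set of skn-1 itself was called different between the RNAi arrays and all 4 controls. Probe set 174799_at read 251, 267, 671 and 654 on control 1 to 4 and 263, 386 and 285 on RNAi 1 to 3. Control 3 and 4 were above every RNAi array, while control 1 lay below the RNAi range and control 2 within it. The log2 difference was -0.43 ± 0.45 (SE; limma adjusted p = 0.589) against all controls and -1.11 ± 0.27 (adjusted p = 0.11) against control 3 and 4, and with the array set as a block it was -1.01 ± 0.22 with an adjusted p of 0.0342, so the call depends on how the array sets are treated. Probe set 188421_at read 92.9, 78.2, 427 and 485 on the controls and 255.8, 345 and 398 on the RNAi arrays, with the same split of the controls, and its difference was 0.73 ± 0.81 (adjusted p = 0.613) against all controls and -0.47 ± 0.29 (adjusted p = 0.408) against control 3 and 4. The third probe set, 194169_s_at, read 447, 442, 797 and 454 on the controls and 235, 371 and 435 on the RNAi arrays. Every RNAi array was below every control array there, at a log2 difference of -0.62 ± 0.31 (adjusted p = 0.285). The targeted stretch of skn-1 is not given in the sources used here, so these probe sets may include bases of the double-stranded RNA.

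The gene gst-4, a glutathione S-transferase that the study used as a GFP reporter of SKN-1 activity in another strain, read 211, 332, 774 and 146 on the controls and 1054, 1823 and 844 on the RNAi arrays. Every RNAi array was above every control, and control 3 was close to the lowest RNAi array. Its log2 difference of 1.98 ± 0.50 missed the threshold (adjusted p = 0.0628), and against control 3 and 4 it was 1.81 ± 0.71 (adjusted p = 0.255). The oxygen arrays without RNAi read 4264, 4702, 3978 and 5171, all above the RNAi arrays (log2 difference of RNAi from oxygen -1.94 ± 0.50, adjusted p = 0.259).

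**Figure D1:**
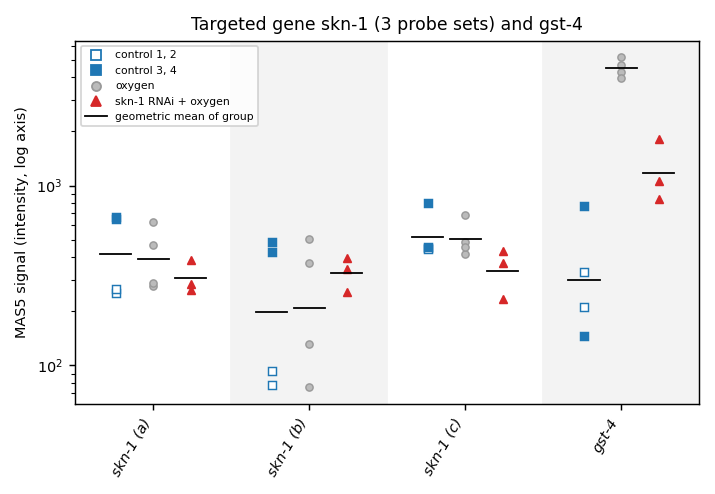
MAS5 signal (log axis) of the 3 skn-1 probe sets, a for 174799_at, b for 188421_at and c for 194169_s_at, and of gst-4 on each of the 11 arrays; bars are geometric means of a group. Control 1 and 2 lie below control 3 and 4 in probe sets a and b, and the RNAi arrays lie below every control in c.

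Of 15393 probe sets tested, 383 (2.49%) rose and 131 (0.851%) fell in the RNAi arrays against all 4 controls at an adjusted p of 0.05. Counted over 11661 genes with 1 probe set each, 308 rose (2.64%) and 105 fell (0.9%). The median fold of the probe sets that rose was 4.63, and that of those that fell was 3.08. Against control 3 and 4 alone, 228 probe sets rose (1.48%) and 58 fell (0.377%), or 175 (1.5%) and 49 (0.42%) genes. Among the 383 and 131 probe sets called against all controls, the median log2 change was 2.21 and -1.62, and against control 3 and 4 it was 2.11 and -1.62 in the same probe sets. The RNAi arrays lay above every control in 16.9% of all tested probe sets and below every control in 6.68%. In total, 160 of the 383 and 38 of the 131 were also called against control 3 and 4. Over the 105 called probe sets chosen by the naming rule, the log2 change against control 3 and 4 was 0.692 to 1.37 times that against all controls.

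The share of higher calls depended on the scaling. It was 74.5% as deposited, 48.5% (207 higher, 220 lower) after quantile normalization and 51.2% (110 higher, 105 lower) after each array was centred on its median. The median log2 change of all tested probe sets was 0.36 against all controls and 0.06 against control 3 and 4, and that of all tested genes was 0.32 and 0.05; the medians of gene groups below are read against these last values. Lists of genes below are counted over 1 probe set per gene, the brightest; 40 genes had another probe set that was called where this one was not, and those of listed genes are named beside their list. The counts also changed when single arrays were left out. Below, an array is named where leaving it out ended the call of a gene, except for hrg-11.3 and the further probe sets. In the cases named, the log2 change was 0.709 to 1.18 times that with all arrays (median 0.994). The calls of hrg-11.3 and the further probe sets also ended without single arrays, at adjusted p of up to 0.0626 (acs-17) to 0.189 (unc-44). Of the 22 alternatives of the closing section, 15 ended the call for pek-1 and unc-44, 12 for col-147 and 11 for akt-2. It was 8 for mrp-5, ugt-46, pho-1 and hrg-11.3, 5 for unc-97, and 3 for acs-17 and vha-13. Without RNAi 1, 2 or 3 the probe sets that rose numbered between 87 (RNAi 2) and 146 (RNAi 1) and those that fell 39, 32 and 51. They numbered 193 and 67 without control 1, with close counts without control 2 (68 fell). Against control 3 and 4 the counts of probe sets that rose and fell were 1685 and 347 without control 3, 103 and 13 without control 4, and 137 and 24 without oxygen 3 or oxygen 4, and without RNAi 1, 2 or 3 they were 50, 22 and 19 (rose) and 4, 5 and 5 (fell).

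**Figure D2:**
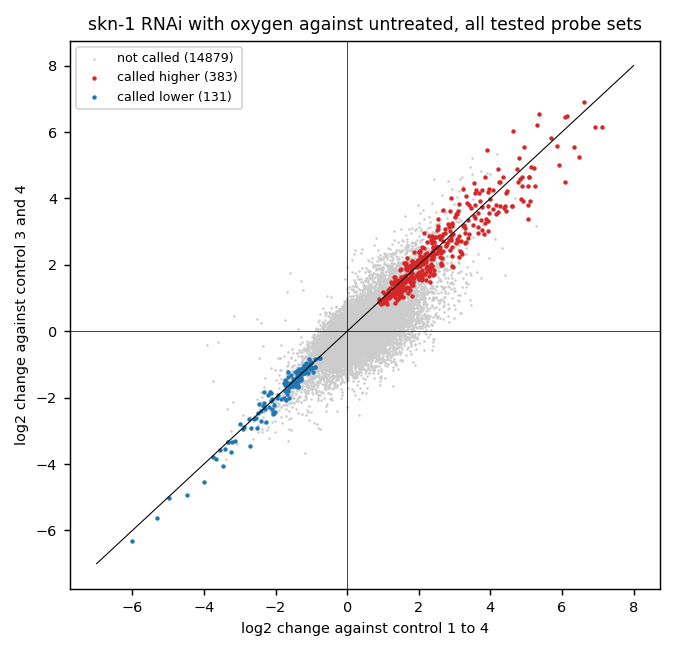
Log2 change of each of the 15393 tested probe sets against all 4 controls (x axis) and against control 3 and 4 (y axis), with called probe sets in colour; the 4 and 2 control arrays and the 3 RNAi arrays are shared by both axes. The 383 probe sets called higher and the 131 called lower have median log2 changes of 2.21 and -1.62 on the x axis and 2.11 and -1.62 on the y axis.

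The largest increases were mostly in genes that were near the floor of the array in control worms. Where every array of a group was below its own 40th percentile, the fold is given as a lower bound, with that percentile in place of a detection limit, which the files do not hold. The log2 changes printed beside a bound are those of the fit to the measured signals and rest on values near the floor. Y51B9A.8 read 0.9, 1.1, 3.4 and 4.2 on the controls and 130.4, 289 and 517 on the RNAi arrays. All controls were below their percentile and all RNAi arrays far above them, which gives at least 10.7-fold (log2 change 7.12 ± 0.64, limma adjusted p = 0.000955). The infection response gene irg-2 read 10.1, 7.3, 4.7 and 7.1 on the controls and 363, 1065 and 832 on the RNAi arrays, at least 27.2-fold (adjusted p = 0.000955). Its relative irg-1, which rises in worms fed harmful bacteria through the bZIP factor ZIP-2, read 4.8, 12.4, 13.3 and 3.2 on the controls and 217, 389 and 587 on the RNAi arrays, at least 14.6-fold (adjusted p = 0.00145). In all of these the groups were far apart, and none of the calls ended under any of the alternatives tried. The log2 changes against control 3 and 4 were (adjusted p in parentheses) 6.15 for Y51B9A.8 (0.011), 6.89 for irg-2 (0.00588) and 5.82 for irg-1 (0.0222).

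The gene parg-2 encodes a poly(ADP-ribose) glycohydrolase, which removes a polymer that cells build at DNA breaks. It read 17.5, 20.8, 31.9 and 4.5 on control 1 to 4 and 722, 1815 and 933 on the RNAi arrays. Every RNAi array was over the highest control, and the log2 change was 6.14 ± 0.60 (adjusted p = 0.0011) against all controls and 6.48 ± 0.82 (adjusted p = 0.0244) against control 3 and 4. The other 4 tested genes of poly(ADP-ribose) turnover were not called. The oxygen arrays without RNAi read 2278, 1688, 3097 and 2992, and the RNAi and oxygen arrays overlapped in parg-2 (log2 difference -1.19 ± 0.60, adjusted p = 0.53).

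Among the 12 largest increases were also C06B3.7 (at least 16.8-fold, log2 change 6.07 ± 0.81), T16G1.5 (at least 3.90-fold, 5.24 ± 0.48) and C49G7.12 (log2 change 5.15 ± 0.60), whose products have no role stated here. The log2 changes relative to control 3 and 4 were (adjusted p in parentheses) 6.44 for C06B3.7 (0.0415), 4.37 for T16G1.5 (0.00588) and 4.95 for C49G7.12 (0.011). The transthyretin-like gene ttr-23 read 28.2, 23.8, 5.5 and 4.4 on the controls and 554, 607 and 288 on the RNAi arrays. Control 1 and 2 were higher than control 3 and 4 in ttr-23, and all were below the RNAi arrays (log2 change 5.35 ± 0.66, adjusted p = 0.00281; 6.54 ± 0.47 against control 3 and 4, adjusted p = 0.00588). The gene pals-6, of a family raised by intracellular pathogens, read 11.4, 13.1, 2.1 and 5.6 on the controls and 358, 237 and 197 on the RNAi arrays, at least 10.1-fold (adjusted p = 0.00313). It was the only called gene among the 8 pals genes tested (12.5%, against 2.64% of all genes). The gene sdz-35, named for its dependence on skn-1 in early embryos, read 0.2, 4.1, 1.0 and 10.8 on the controls and 53.9, 161 and 132 on the RNAi arrays, at least 4.15-fold, and against control 3 and 4 the log2 change was 4.99 (adjusted p = 0.0697) and that of pals-6 6.22 (adjusted p = 0.0145). With arrays left out one at a time, the adjusted p passed 0.05 for sdz-35 without RNAi 1, 2 or 3 (0.0682 to 0.116).

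**Figure D3:**
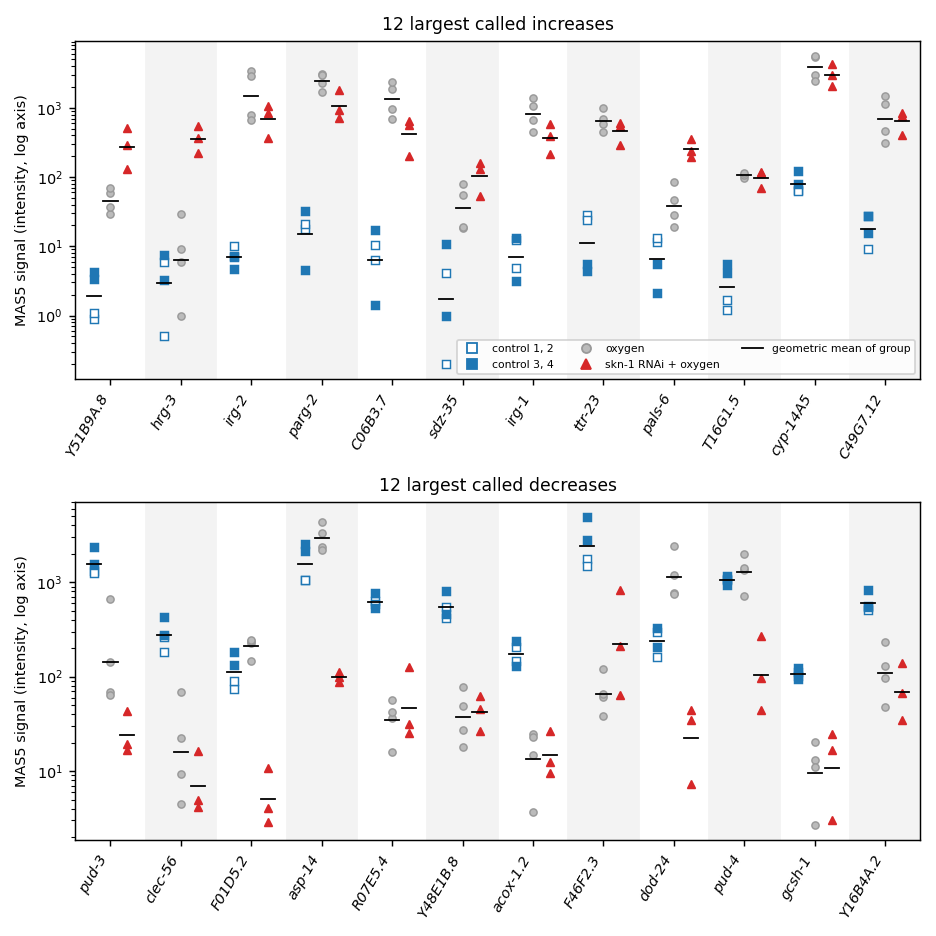
MAS5 signal (log axis) on every array of the 12 genes with the largest called increases (upper panel, Y51B9A.8 to C49G7.12) and decreases (lower panel, pud-3 to Y16B4A.2) against control; bars are geometric means of a group. The RNAi arrays do not overlap the controls in any of the 24 genes, which the choice of the genes required.

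Several detoxification enzymes rose, against the 2.64% of all genes that did. Of 50 UDP-glucuronosyltransferases tested, 8 rose and none fell, at a median log2 change of 0.80 (0.66 against control 3 and 4), and 7 rose against control 3 and 4. The gene ugt-26 read 74.6, 72.0, 124 and 131 on the controls and 1059.7, 2140.2 and 1528 on the RNAi arrays, with every RNAi array at least several times over the highest control (log2 change 3.97 ± 0.31, limma adjusted p = 0.00076). A similar gap was seen in ugt-29 (62.7 ± 15.5 in controls, SD, n = 4; 1858 ± 1198 in RNAi arrays, SD, n = 3; log2 change 4.74 ± 0.41, adjusted p = 0.000892). In ugt-19 the change was 3.66 ± 0.39 (adjusted p = 0.00145) and in ugt-48 2.89 ± 0.33 (adjusted p = 0.00223). The changes relative to control 3 and 4 were (adjusted p in parentheses) 3.57 for ugt-26 (0.0134), 4.88 for ugt-29 (0.0173), 3.57 for ugt-19 (0.037) and 2.74 for ugt-48 (0.0415). A further probe set of ugt-46 was called lower (log2 -1.35 ± 0.27, adjusted p = 0.0255; -1.15 against control 3 and 4, adjusted p = 0.0693). The probe set of ugt-29 can also measure similar genes.

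Of 52 cytochrome P450 genes, 6 rose and none fell. Their median change was 0.43 against all controls and 0.00 against control 3 and 4, with -0.02 for quantile-normalised and -0.14 for median-centred arrays. The medians of all tested genes were 0.32, 0.05, -0.01 and -0.26 in the same order. The family median therefore lay above that of all genes in some of these settings and below it in others. The gene cyp-14A5 read 65.2, 63.0, 123 and 80.5 on the controls and 2087, 4297 and 2955 on the RNAi arrays, a 37.3-fold change (log2 5.22 ± 0.40, adjusted p = 0.00076). Every RNAi array was above every control, and the RNAi arrays overlapped the oxygen arrays without RNAi (2942, 2431, 5395 and 5582). A further 19.2-fold change was seen in cyp-33C8 (log2 4.26 ± 0.46, adjusted p = 0.00145). For cyp-14A4 the bound was at least 6.94-fold (log2 4.23 ± 0.54) and for cyp-13A7 at least 3.17-fold (log2 4.08 ± 0.62). Control 3 and 4 alone gave 4.90 for cyp-14A5 (0.00628), 3.76 for cyp-33C8 (0.0279), 3.58 for cyp-14A4 (0.0276) and 3.68 for cyp-13A7 (0.0309), with adjusted p in parentheses.

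The glutathione S-transferases moved in both directions: of 35 tested, 5 rose (14.3%) and 2 fell (5.71%), with a median of 0.80 (0.26 against control 3 and 4). Over all genes 2.64% rose and 0.9% fell. The omega-class gene gsto-1 read 135, 75.6, 76.0 and 75.7 on the controls and 917, 1451 and 1129.8 on the RNAi arrays, a 13.1-fold change (log2 3.71 ± 0.45, limma adjusted p = 0.0027). The oxygen arrays without RNAi read 117, 128, 34 and 63.2, which overlapped the controls, and RNAi differed from oxygen by 3.93 ± 0.45 (adjusted p = 0.00562). Over all genes, 6 were called higher (0.0515%) and 23 lower (0.197%) in the RNAi arrays than in the oxygen arrays. The gene gst-30 read 17.8, 19.9, 48.6 and 19 on the controls and 301, 516 and 493 on the RNAi arrays (log2 4.15 ± 0.39, adjusted p = 0.000955), and there the oxygen arrays (421, 429, 667 and 649) overlapped the RNAi arrays. Of the genes that fell, gst-26 went from 558 ± 62.4 (SD, n = 4) to 112.2 ± 14.1 (SD, n = 3; log2 -2.32 ± 0.37, adjusted p = 0.0111) and gst-27 from 1567 ± 632 to 290.0 ± 21.1 (log2 -2.34 ± 0.47, adjusted p = 0.028). The changes against control 3 and 4 were (adjusted p in parentheses) 3.92 for gsto-1 (0.011), 3.8 for gst-30 (0.0225), -2.27 for gst-26 (0.0415) and -1.82 for gst-27 (0.031). Calls ended on leaving out single arrays for gst-26 without RNAi 2 (0.0645) and gst-27 without control 1 or 2, RNAi 1, 2 or 3 (0.0769 to 0.116).

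Of 45 ABC transporters, 4 rose, none fell, and the median was 0.58 (0.07 against control 3 and 4). The P-glycoprotein gene pgp-5 read 9.1, 13.6, 21.3 and 20.1 on the controls, each below its percentile, and 382, 703 and 508 on the RNAi arrays, at least 20.4-fold (log2 5.08 ± 0.62, adjusted p = 0.0027). The other 3 were mrp-2 (log2 1.80 ± 0.38), pgp-14 (2.29 ± 0.50) and haf-7 (3.21 ± 0.74), with adjusted p of 0.0338, 0.039 and 0.0461. On leaving out single arrays, the adjusted p passed 0.05 for mrp-2 without control 1, 2 or 3, oxygen 1, RNAi 1, 2 or 3 (0.053 to 0.15), pgp-14 without control 1 or 2, oxygen 1 or 3, RNAi 1, 2 or 3 (0.0557 to 0.154) and haf-7 without control 1 or 2, oxygen 3, RNAi 1, 2 or 3 (0.0592 to 0.172). A further probe set of pgp-14 was not called, and a further one of mrp-5 was called higher (log2 2.25 ± 0.50, adjusted p = 0.0391; 1.88 against control 3 and 4, adjusted p = 0.0344). Relative to control 3 and 4 the changes were 4.64 for pgp-5 (0.00588), 1.85 for mrp-2 (0.0435), 1.67 for pgp-14 (0.0851) and 2.32 for haf-7 (0.0463). Short-chain dehydrogenases, of which 28 were tested, gave 1 gene that rose, dhs-14 (log2 2.03 ± 0.41), and 1 that fell, dhs-3 (-1.66 ± 0.32). These were 3.57% each way, against 2.64% higher and 0.9% lower over all genes. Both calls ended on leaving out single arrays: dhs-14 without control 2, RNAi 1, 2 or 3 (0.0546 to 0.128) and dhs-3 without control 1 or 2, RNAi 1, 2 or 3 (0.0578 to 0.115). Neither was called against control 3 and 4, at 2.42 for dhs-14 (0.0686) and -1.39 for dhs-3 (0.0778).

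A list of 22 genes known from other work to be raised by SKN-1 was read in every array. It overlaps the glutathione S-transferases and ABC transporters above. Against all controls 3 rose (gst-30, sdz-8 and mrp-2), or 13.6% where 2.64% of all genes did, and none fell. The median was 0.95, against 0.51 for control 3 and 4. The gene sdz-8 read 54.1, 61.7, 83.8 and 92.8 on the controls and 271, 427 and 403 on the RNAi arrays, which did not overlap (log2 2.33 ± 0.29, adjusted p = 0.0027; 2.03 ± 0.28 against control 3 and 4, adjusted p = 0.0294); the oxygen arrays read 1040.1, 1122, 1458 and 1672, all above the RNAi arrays (log2 difference of RNAi from oxygen -1.85 ± 0.29, adjusted p = 0.0339). For several other members the RNAi arrays were at or near control level. The gene gst-38 read 177, 193, 155 and 148 on the controls and 93.0, 103 and 115 on the RNAi arrays (log2 -0.70 ± 0.21, adjusted p = 0.102), and gst-13 read 332, 353, 613 and 328 on the controls and 226, 317 and 311 on the RNAi arrays (log2 -0.48 ± 0.30, adjusted p = 0.383). Every RNAi array was below every control in gst-13 and gst-38, while their oxygen arrays without RNAi read 1574, 1648, 2033 and 2793 and 626, 537, 749 and 684. The glutathione synthesis gene gcs-1, at 471 ± 84.2 (SD, n = 4) in controls and 915 ± 119.7 (SD, n = 3) in RNAi arrays, had a log2 difference of 0.97 ± 0.27 that was not called (adjusted p = 0.0863), nor was that of the superoxide dismutase gene sod-1 (-0.13 ± 0.21, adjusted p = 0.72).

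Heme trafficking was the group with the largest share of genes called higher among the 52 lists examined. Of 8 genes tested, 5 rose, against 2.64% of all genes, at a median of 1.71 against all controls and 1.64 against control 3 and 4. The list leaves out the hrg-11 genes, whose role is not stated here: hrg-11.3 fell (log2 -1.56 ± 0.31, adjusted p = 0.0255; -1.62 against control 3 and 4, adjusted p = 0.096), and hrg-11.2 and hrg-11.4 were not called (log2 -0.51 and 0.05). Over all 11 tested hrg genes 5 rose and 1 fell, at a median of 0.69 against all controls and 0.50 against control 3 and 4. The gene hrg-1 encodes a heme transporter of lysosome-like vesicles. It read 219, 130.2, 223 and 147 on the controls and 1794, 3164 and 2435 on the RNAi arrays, a 13.7-fold change (log2 3.78 ± 0.29, limma adjusted p = 0.00076; 3.73 ± 0.34 against control 3 and 4, adjusted p = 0.0116). Every RNAi array was also above the oxygen arrays without RNAi, which read 481, 407, 331 and 452 (log2 difference 2.54 ± 0.29, adjusted p = 0.00556).

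The gene hrg-3, which encodes a small secreted protein that carries heme from the intestine to other tissues, read 0.5, 5.9, 7.4 and 3.3 on the controls and 220.2, 548 and 370.4 on the RNAi arrays. All controls were below their percentile, which gives at least 14.1-fold (log2 6.93 ± 1.15, adjusted p = 0.012), and the oxygen arrays read 9.2, 6.0, 1.0 and 29.7. Its log2 change against control 3 and 4 was 6.17 ± 1.33 with an adjusted p of 0.0839, which missed the threshold. The gene hrg-7, whose product is a secreted aspartyl protease that signals heme status between tissues, read 2097, 1432, 1536 and 1523 on the controls, 5800.0, 7534 and 7782 on the RNAi arrays and 1130.3, 1525, 446 and 836 on the oxygen arrays. The RNAi arrays stood above both other groups, by 2.1 ± 0.38 against control (adjusted p = 0.0163; 2.19 ± 0.33 against control 3 and 4, adjusted p = 0.0352) and 2.96 ± 0.38 against oxygen (adjusted p = 0.0118).

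The intestinal heme importer gene hrg-4 read 66.5, 42.8, 96.3 and 42.2 on the controls and 143, 129.9 and 169.6 on the RNAi arrays. Control 3 was the highest control, and the groups did not overlap (log2 1.33 ± 0.30, adjusted p = 0.0441; 1.2 ± 0.39 against control 3 and 4, adjusted p = 0.181). The hrg-4 call also ended with the array set as a block (1.26, adjusted p = 0.0579) and after quantile normalization (0.92, adjusted p = 0.33). The gene hrg-9, which takes part in releasing heme from lysosome-like stores, read 9.1, 12.4, 21.5 and 7.6 on the controls and 32.1, 72.6 and 67.4 on the RNAi arrays, at least 2.14-fold (log2 2.21 ± 0.44, adjusted p = 0.0248; 2.08 ± 0.55 against control 3 and 4, adjusted p = 0.131), and its oxygen arrays were at 102, 56.2, 124 and 89.5. The remaining members hrg-10, hrg-13 and hrg-14 had log2 differences of 0.29, 0.69 and -0.10 and were not called. With arrays left out one at a time, the adjusted p passed 0.05 for hrg-3 without RNAi 2 or 3 (0.0554 to 0.0692), hrg-7 without RNAi 1, 2 or 3 (0.0528 to 0.0824), hrg-4 without control 1, 2 or 4, oxygen 1, 2, 3 or 4, RNAi 1, 2 or 3 (0.0553 to 0.166) and hrg-9 without control 1 or 2, RNAi 2 or 3 (0.0605 to 0.122), and a further probe set of hrg-9 was not called.

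**Figure D4:**
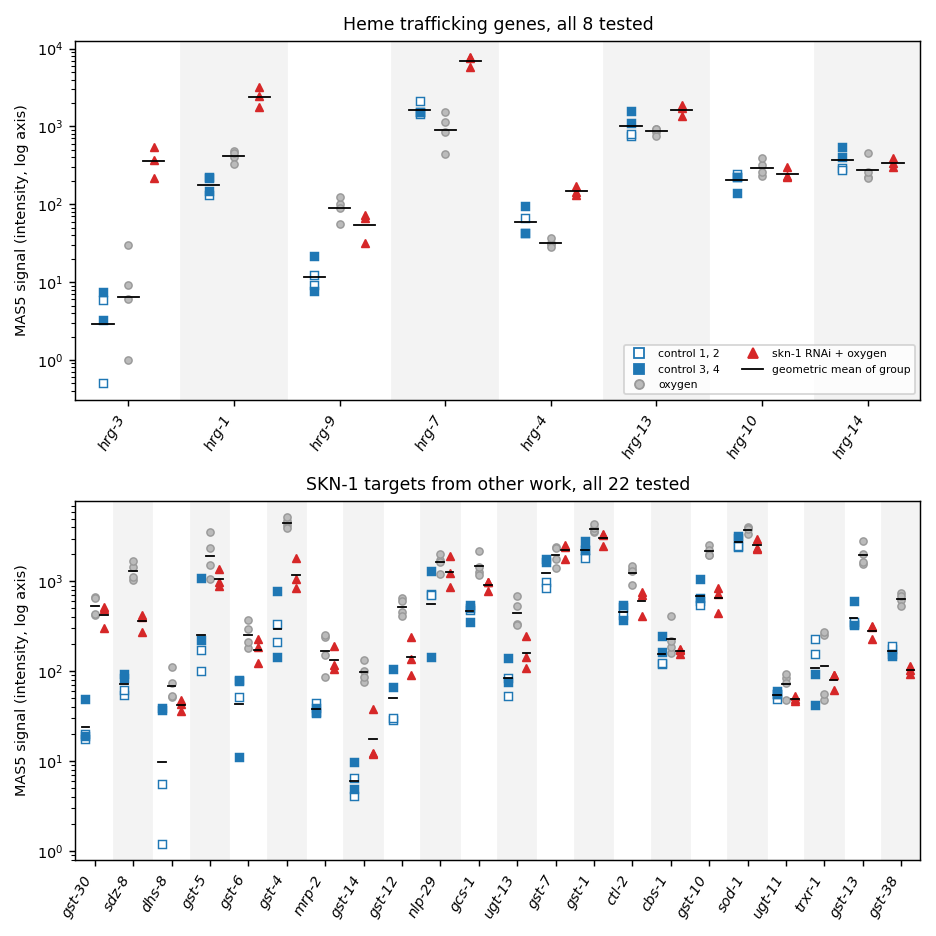
MAS5 signal (log axis) on every array of the 8 tested heme trafficking genes (upper panel) and of the 22 tested genes known as SKN-1 targets from other work (lower panel), ordered by log2 change against control; bars are geometric means of a group. The RNAi arrays are above every control and oxygen array in hrg-3, hrg-1, hrg-7 and hrg-4, and below every control array in gst-38 and gst-13.

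The largest decrease was in pud-3, of a small nematode gene family that is named for altered protein levels in mutants of the insulin receptor daf-2. It read 1302, 1251, 1552 and 2381 on the controls and 16.7, 19.3 and 43.8 on the RNAi arrays, a 64.8-fold decrease (log2 -6.02 ± 0.74, limma adjusted p = 0.0027; -6.31 ± 0.46 against control 3 and 4, adjusted p = 0.00588). The oxygen arrays without RNAi lay between these groups at 142, 671, 69.5 and 64.2. Its relative pud-4 read 1088, 1058, 944 and 1173 on the controls and 44.8, 96.2 and 270.1 on the RNAi arrays (log2 -3.34 ± 0.54, adjusted p = 0.0111), while the oxygen arrays read 1351, 1995, 1419 and 719, which overlapped the controls.

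Of 10 genes known to be lowered by DAF-16, the transcription factor of insulin signalling, 2 fell (asp-14 and dod-24) and 1 rose (dod-22). Over all genes 0.9% fell and 2.64% rose. The aspartyl protease gene asp-14 read 1069.8, 1058, 2533 and 2124 on the controls and 87.1, 113 and 98.1 on the RNAi arrays, a 15.9-fold decrease (log2 -3.99 ± 0.38, adjusted p = 0.000955; -4.55 ± 0.25 against control 3 and 4, adjusted p = 0.00588). Control 3 and 4 were higher than control 1 and 2, and all were far above the RNAi arrays. The oxygen arrays were at 2359, 2195, 3327 and 4392, so that RNAi also differed from oxygen (-4.90 ± 0.38, adjusted p = 0.000964). The probe sets of asp-14 and dod-24 can also measure similar genes. The CUB-like gene dod-24, which responds to pathogens, read 161, 298, 204 and 332 on the controls, 44.5, 34.8 and 7.3 on the RNAi arrays and 1189, 771, 742 and 2441 on the oxygen arrays. It was lowest in the RNAi arrays and highest in the oxygen arrays (log2 -3.41 ± 0.64 against control, adjusted p = 0.0195; -5.66 ± 0.64 against oxygen, adjusted p = 0.00556).

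Of 15 CUB-like and pud genes tested, 4 fell (26.7%, against 0.9% of all genes) and 1 rose (6.67%, against 2.64%). Their median was -0.59 (-0.96 against control 3 and 4). The fourth gene that fell, C32H11.4, was at 161 ± 57.2 (SD, n = 4) in controls, 703 ± 122 (SD, n = 4) in oxygen and 35.2 ± 20.9 (SD, n = 3) in RNAi arrays (log2 -2.27 ± 0.41 against control, adjusted p = 0.0161). The one that rose was dod-22 (log2 1.66 ± 0.36, adjusted p = 0.0371), at a mean of 52.5 in controls and 167 in RNAi arrays. Against control 3 and 4 the changes were (adjusted p in parentheses) -3.32 for pud-4 (0.0867), -3.53 for dod-24 (0.114), -2.72 for C32H11.4 (0.0451) and 1.33 for dod-22 (0.191). Calls ended for pud-4 without RNAi 2 (0.0618), dod-24 without control 2, RNAi 2 or 3 (0.0526 to 0.061), C32H11.4 without RNAi 1 or 3 (0.0768 to 0.081) and dod-22 without control 1 or 2, oxygen 1, RNAi 1, 2 or 3 (0.0564 to 0.159).

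A set of neighbouring genes, F01D5.2, F01D5.3 and F01D5.5, was lower in the RNAi arrays than in both other groups. F01D5.2 read 74.9, 89.7, 184 and 132 on the controls, 4.1, 10.9 and 2.9 on the RNAi arrays and 148, 229.9, 238 and 242 on the oxygen arrays. All RNAi arrays were below their 40th percentile, which gives at least 3.01-fold (log2 -4.48 ± 0.47, adjusted p = 0.00141). For F01D5.3 the bound was at least 4.78-fold (log2 -2.40 ± 0.32, adjusted p = 0.0047), and for F01D5.5 at least 2.24-fold (log2 -2.41 ± 0.46, adjusted p = 0.0211). The calls of F01D5.2 and F01D5.3 held under every alternative tried, and that of F01D5.5 was lost on leaving out single arrays: F01D5.5 without control 1 or 2, RNAi 1 or 3 (0.0516 to 0.0922). A gene elsewhere, C14C6.5, read 1751, 1315, 1140.0 and 1984 on the controls, 173, 243 and 200.4 on the RNAi arrays and 2298, 1734, 1289.5 and 3344 on the oxygen arrays (log2 -2.89 ± 0.34 against control, adjusted p = 0.00223). Control 3 and 4 alone gave -4.95 for F01D5.2 (0.0202), -2.70 for F01D5.3 (0.0244), -2.40 for F01D5.5 (0.12) and -2.89 for C14C6.5 (0.0415), with adjusted p in parentheses.

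In the other large decreases, the RNAi arrays overlapped the oxygen arrays. The C-type lectin gene clec-56 read 262, 184, 275 and 428 on the controls and 4.2, 4.9 and 16.2 on the RNAi arrays, at least 7.31-fold lower (log2 -5.31 ± 0.83, adjusted p = 0.00972). The gene acox-1.2, an acyl-CoA oxidase that shortens the side chains of ascaroside pheromones, read 145, 207, 238 and 129.9 on the controls and 26.7, 9.6 and 12.5 on the RNAi arrays, at least 4.65-fold lower (log2 -3.57 ± 0.63, adjusted p = 0.0158). R07E5.4 read 633, 582, 528 and 775 on the controls and 25.2, 31.7 and 126 on the RNAi arrays, and its oxygen arrays read 16.1, 36.5, 42.7 and 56.2. None of the RNAi arrays overlapped the controls in these genes. Their changes against control 3 and 4 were (adjusted p in parentheses) -5.63 for clec-56 (0.0222), -3.58 for acox-1.2 (0.0297) and -3.78 for R07E5.4 (0.0557).

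The gene Y48E1B.8 fell by 12.7-fold (log2 -3.67 ± 0.50, adjusted p = 0.0047) and Y16B4A.2 by 8.75-fold (log2 -3.13 ± 0.56, adjusted p = 0.0163). F46F2.3 read 1751, 1485, 2804 and 4909 on the controls and 209, 63.5 and 825 on the RNAi arrays (log2 -3.46 ± 0.77, adjusted p = 0.0413). The gene gcsh-1, for the H protein of the glycine cleavage system, was at 109 ± 13.3 in controls (SD, n = 4) and 14.7 ± 10.9 in RNAi arrays (SD, n = 3), at least 2.88-fold lower (adjusted p = 0.0475). Y48E1B.8 was also called against control 3 and 4, and the other 3 were not: the changes were -3.85 for Y48E1B.8 (0.0225), -3.29 for Y16B4A.2 (0.076), -4.06 for F46F2.3 (0.111) and -3.35 for gcsh-1 (0.194). With the array set as a block the calls of F46F2.3 (adjusted p = 0.0531) and gcsh-1 (adjusted p = 0.0766) ended too. With 1 array left out at a time, the adjusted p passed 0.05 for clec-56 without RNAi 2 (0.0593), acox-1.2 without RNAi 2 or 3 (0.0726 to 0.0843), R07E5.4 without RNAi 2 (0.0533), Y16B4A.2 without RNAi 1 or 2 (0.0712 to 0.0805), F46F2.3 without control 1, 2, 3 or 4, oxygen 1, 3 or 4, RNAi 1 or 2 (0.0526 to 0.144) and gcsh-1 without control 1, 2, 3 or 4, oxygen 1 or 2, RNAi 1, 2 or 3 (0.0602 to 0.154).

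Of 29 antioxidant enzyme genes tested, 2 rose (6.90%, against 2.64% of all genes) and none fell, at a median of 0.10 (-0.04 against control 3 and 4; -0.12 after quantile normalization). The methionine sulfoxide reductase gene msra-1, whose product repairs oxidised methionine, read 246, 226, 284 and 403 on the controls and 883, 2498 and 2726 on the RNAi arrays (log2 2.69 ± 0.44, limma adjusted p = 0.0115). The groups were well apart, but against control 3 and 4 its change of 2.43 ± 0.58 was not called (adjusted p = 0.105). The extracellular superoxide dismutase gene sod-4 rose by 1.1 ± 0.25 on the log2 scale (adjusted p = 0.0462) and was not called against control 3 and 4 (0.93 ± 0.27, adjusted p = 0.159). Calls ended (adjusted p in parentheses) for msra-1 without RNAi 2 or 3 (0.0588 to 0.0691) and sod-4 without control 1, 2 or 3, oxygen 1, 2 or 3, RNAi 1, 2 or 3 (0.055 to 0.187).

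Of 22 cytosolic heat shock genes, 3 rose (13.6%, against 2.64% of all genes) and none fell. All 3 were small heat shock protein genes of the hsp-16 group. The gene hsp-16.41 read 10.1, 18.3, 16.3 and 5.6 on the controls and 126, 138 and 586 on the RNAi arrays (log2 4.25 ± 0.61, adjusted p = 0.00645; 4.51 ± 0.77 against control 3 and 4, adjusted p = 0.0463). In hsp-16.2 the arrays read 16.2, 18.8, 24 and 3.3 on the controls and 94.2, 91.8 and 477 on the RNAi arrays, again without overlap (log2 3.69 ± 0.73, adjusted p = 0.0258). The bound for hsp-16.20 was at least 2.89-fold (log2 2.60 ± 0.40, adjusted p = 0.00967). Neither of these 2 was called against control 3 and 4, where the changes were 4.17 for hsp-16.2 (0.11) and 2.45 for hsp-16.20 (0.0757). On leaving out single arrays, the adjusted p passed 0.05 for hsp-16.2 without control 1, RNAi 1, 2 or 3 (0.0574 to 0.0956). All 3 hsp-16 calls ended with median centring (adjusted p of 0.0511 to 0.132) and with quantile normalization (0.0534 to 0.121). On the lists of the endoplasmic reticulum (28 tested) and mitochondrial (15 tested) unfolded protein responses, no gene was called against all controls by its brightest probe set. A further probe set of pek-1, for a kinase that slows translation under stress of the endoplasmic reticulum, was called higher (log2 1.43 ± 0.33, adjusted p = 0.0457; 1.5 against control 3 and 4, adjusted p = 0.0415), and xbp-1, for a transcription factor of that response, was called against control 3 and 4 alone (1.29, adjusted p = 0.0459; 1.66 against all controls, adjusted p = 0.15).

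Metal handling genes, which include metallothioneins and metal transporters, gave 4 genes that rose of 32 tested (12.5%, against 2.64% of all genes) and none that fell. The cadmium-responsive gene cdr-4 read 125, 144, 185 and 111 on the controls and 786, 1488 and 2017 on the RNAi arrays, a 9.59-fold change (log2 3.26 ± 0.35, adjusted p = 0.00145). The metallothionein gene mtl-1 read 39.0, 63.7, 91.8 and 33.7 on the controls and 537, 764 and 306 on the RNAi arrays (log2 3.25 ± 0.53, adjusted p = 0.0112). In both genes every RNAi array was above every control. The manganese and iron transporter gene smf-3 rose by 2.66 ± 0.62 and the zinc transporter gene zipt-2.1 by 1.80 ± 0.43 on the log2 scale (adjusted p = 0.0491 and 0.0498). Control 3 and 4 alone gave 3.21 for cdr-4 (0.0305), 3.17 for mtl-1 (0.0937), 3.64 for smf-3 (0.0361) and 1.74 for zipt-2.1 (0.0965), with adjusted p in parentheses. On leaving out single arrays, the adjusted p passed 0.05 for mtl-1 without RNAi 1 or 2 (0.0511 to 0.067), smf-3 without control 2 or 4, oxygen 1, 2, 3 or 4, RNAi 1, 2 or 3 (0.06 to 0.181) and zipt-2.1 without control 1, 2 or 3, oxygen 1 or 3, RNAi 1, 2 or 3 (0.0552 to 0.191). Of 15 genes known to be raised by DAF-16, 2 rose (mtl-1 and dod-3), or 13.3% against 2.64% of all genes. The median of the list was 0.81 (0.73 against control 3 and 4). The log2 change of dod-3 was 2.31 ± 0.52 (adjusted p = 0.0417), and against control 3 and 4 it was 1.88 (adjusted p = 0.197). Its call was lost without control 1, 2 or 4, oxygen 1, 2, 3 or 4, RNAi 1, 2 or 3 (0.0512 to 0.162).

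In the HIF-1 pathway, which responds to low oxygen, none of 14 genes rose, and 1 fell (7.14%, against 0.9% of all genes). This was cysl-2, for a cyanoalanine synthase that uses cysteine, which is also on the list of cysteine, sulfide and glutathione synthesis. It read 1033, 811, 989.7 and 353 on the controls and 117, 157 and 249 on the RNAi arrays (log2 -2.15 ± 0.40, adjusted p = 0.0201), with no overlap, and its probe set can also measure similar genes. The change against control 3 and 4 was -1.83 ± 0.51 (adjusted p = 0.143). The call was lost for cysl-2 without control 1 or 2, RNAi 1 or 2 (0.0572 to 0.0981).

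Genes of defence against microbes moved in both directions. Of 57 genes for lysozymes, antimicrobial peptides and infection responses, 8 rose and 2 fell, and of 97 C-type lectins 5 rose and 7 fell. The lysozyme gene lys-2 read 1884, 2158, 1498 and 924 on the controls and 5529, 6243 and 6728 on the RNAi arrays (log2 2.0 ± 0.32, adjusted p = 0.0111). The antifungal-peptide-related gene fipr-26 was at 24.3 ± 16.2 in controls (SD, n = 4) and 635 ± 391 in RNAi arrays (SD, n = 3; log2 4.92 ± 0.76, adjusted p = 0.0091). Both probe sets can also measure similar genes. The bZIP factor gene zip-2 itself read 182, 244, 619 and 414 on the controls and 1829, 1978 and 2225 on the RNAi arrays (log2 2.62 ± 0.54, adjusted p = 0.0311). It was the 1 called gene of 24 stress bZIP genes (4.17%, against 2.64% of all genes). These 3 genes were also called against control 3 and 4, with changes of 2.39 for lys-2 (0.0244), 3.93 for fipr-26 (0.0439) and 1.98 for zip-2 (0.0276). Without single arrays the adjusted p passed 0.05 for lys-2 without RNAi 2 or 3 (0.0554 to 0.0601), fipr-26 without RNAi 2 (0.0554) and zip-2 without control 1 or 2, RNAi 1, 2 or 3 (0.078 to 0.12).

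Among the lectins, clec-47 rose 28.6-fold (log2 4.84 ± 0.56, adjusted p = 0.00223), clec-67 8.41-fold (3.07 ± 0.42, adjusted p = 0.00494) and clec-265 6.61-fold (2.72 ± 0.30, adjusted p = 0.00193). In clec-52 the controls read 193, 145, 193 and 285, the RNAi arrays 47.4, 45.2 and 44.8 and the oxygen arrays 198, 126, 236 and 148, so that the RNAi arrays were below both other groups (log2 -2.11 ± 0.29 against control, adjusted p = 0.00475; -1.91 ± 0.29 against oxygen, adjusted p = 0.0286). All 4 were also called against control 3 and 4, with changes of 4.58 for clec-47 (0.00588), 3.54 for clec-67 (0.0294), 2.95 for clec-265 (0.0276) and -2.35 for clec-52 (0.0244). The median of the lectins was 0.31 against all controls, close to the 0.32 of all tested genes. Against control 3 and 4 it was -0.27, below the 0.05 of all tested genes.

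Of 54 genes for ubiquitin adaptors and autophagy, 2 rose (3.70%, close to the 2.64% of all genes): sqst-1, for the autophagy receptor p62, which read 245, 343, 339 and 327 on the controls and 1253, 1492 and 1334 on the RNAi arrays (log2 2.13 ± 0.35, adjusted p = 0.0119), and the Skp1-related gene skr-5, which read 21, 21.5, 15.7 and 3.3 on the controls and 212, 228 and 121 on the RNAi arrays (log2 3.86 ± 0.67, adjusted p = 0.0145). The RNAi arrays were above every control in both. Of 89 F-box A genes, which encode adaptors that bind Skp1 proteins, 4 rose (4.49%) and 1 fell (1.12%, against 0.9% of all genes). The gene fbxa-79 was at 10.8 ± 7.13 in controls and 101 ± 26.2 in RNAi arrays (SD, n = 4 and 3; log2 3.40 ± 0.56, adjusted p = 0.0115), and fbxa-72 fell from 200.2 ± 38.3 to 59.4 ± 10.9 (log2 -1.75 ± 0.32, adjusted p = 0.0166). The changes against control 3 and 4 were 2.03 for sqst-1 (0.0225), 4.64 for skr-5 (0.031), 3.8 for fbxa-79 (0.015) and -1.55 for fbxa-72 (0.129). These calls were lost (adjusted p in parentheses) for sqst-1 without RNAi 2 or 3 (0.0534 to 0.0686), skr-5 without RNAi 1 or 2 (0.067 to 0.0766), fbxa-79 without RNAi 2 or 3 (0.059 to 0.0594) and fbxa-72 without control 1, RNAi 1, 2 or 3 (0.0515 to 0.0859). None of 33 proteasome genes was called.

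Lysosomal proteases rose in a few members. Of 12 cathepsin-like cysteine protease genes, 2 rose (16.7%, against 2.64% of all genes). The cathepsin B-like gene cpr-4 read 804, 1047, 349 and 758 on the controls and 4094, 5879 and 4719.7 on the RNAi arrays, a 7.05-fold change (log2 2.82 ± 0.35, adjusted p = 0.00281), with control 3 the lowest control. The gene cpr-8 read 109.8, 63.0, 69.6 and 67.5 on the controls, 307, 508 and 413 on the RNAi arrays and 114.1, 82.0, 36.4 and 139 on the oxygen arrays (log2 2.41 ± 0.44 against control, adjusted p = 0.017). The serine carboxypeptidase gene ctsa-4.1, a cathepsin A relative, rose by 2.04 ± 0.32 against control (adjusted p = 0.00972) and was 2.31 ± 0.32 above oxygen (adjusted p = 0.0175). Of 9 aspartyl protease genes, asp-8 rose (log2 1.63 ± 0.36, adjusted p = 0.0389) and asp-14, above, fell. These were 11.1% each way, against 2.64% higher and 0.9% lower over all genes. Relative to control 3 and 4 the changes were 3.24 for cpr-4 (0.0225), 2.55 for cpr-8 (0.0864), 1.68 for ctsa-4.1 (0.0779) and 1.87 for asp-8 (0.0975). With 1 array removed, the adjusted p passed 0.05 for cpr-8 without control 2, RNAi 2 or 3 (0.0509 to 0.0912), ctsa-4.1 without RNAi 2 (0.0593) and asp-8 without control 1, 2 or 3, oxygen 1 or 3, RNAi 1, 2 or 3 (0.0522 to 0.157).

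In fatty acid metabolism 2 of 100 genes rose and 2 fell, against 2.64% and 0.9% of all genes. The acyl-CoA dehydrogenase gene acdh-1, which acts in the propionate shunt and rises when vitamin B12 is low, read 2895, 2418, 2989 and 3241 on the controls and 5362, 6645 and 5589.6 on the RNAi arrays (log2 1.03 ± 0.20, adjusted p = 0.0231). The groups did not overlap, but against control 3 and 4 the change of 0.91 ± 0.24 was not called (adjusted p = 0.126). The acyl-CoA synthetase gene acs-5 fell from 483 ± 25.8 to 225 ± 48.0 (SD, n = 4 and 3; log2 -1.12 ± 0.20, adjusted p = 0.0162). On the list of the propionate shunt and B12 route, pmt-2, for a methyltransferase of phosphatidylcholine synthesis, fell from 4430.4 ± 936 to 1704 ± 222 (log2 -1.36 ± 0.22, adjusted p = 0.0112), and acdh-1 was the other called gene of 22. The falls of acs-5 and pmt-2 were not called against control 3 and 4, at -1.07 for acs-5 (0.103) and -1.42 for pmt-2 (0.0701). A further probe set of the acyl-CoA synthetase gene acs-17 was called higher (log2 2.44 ± 0.38, adjusted p = 0.0101; 2.85 against control 3 and 4, adjusted p = 0.0244). Without single arrays the adjusted p passed 0.05 for acdh-1 without control 1 or 2, RNAi 1, 2 or 3 (0.0629 to 0.123), acs-5 without control 1 or 2, RNAi 1 or 2 (0.0509 to 0.0962) and pmt-2 without RNAi 1 or 3 (0.0583 to 0.0596).

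Cuticle collagens had the lowest median of the 52 lists. Of the tested collagen genes, 7 (6.25%) fell (all genes 0.9%) and 1 rose, at a median of -0.64 against all controls and -1.06 against control 3 and 4. The median also lay below that of all tested genes after quantile normalization (-0.86 against -0.01) and median centring (-1.21 against -0.26). The gene col-12 read 3056, 2335, 3422 and 4343 on the controls and 588, 1119.7 and 1292 on the RNAi arrays (log2 -1.76 ± 0.34, limma adjusted p = 0.0231), and col-103 read 2163, 2215, 3349.6 and 4537 on the controls and 314, 984 and 1178 on the RNAi arrays (log2 -2.03 ± 0.44, adjusted p = 0.0379). Control 3 and 4 were above control 1 and 2 in col-103, and no RNAi array reached a control in either. The called probe sets of the collagen genes col-12, col-17, col-43, col-146 and dpy-13, all lower, can also measure similar genes. So can the further one of col-147 below. Against control 3 and 4, 1 collagen gene was called lower, and the changes of the 2 named here were -2.02 for col-12 (0.0707) and -2.45 for col-103 (0.0972). A further probe set of col-147 was called lower against all controls (log2 -1.69 ± 0.37, adjusted p = 0.0393; -1.90 against control 3 and 4, adjusted p = 0.0778). The epidermal marker gene grd-3 fell too, from 2267 ± 394 to 597 ± 146 (SD, n = 4 and 3; log2 -1.94 ± 0.37, adjusted p = 0.0211). The oxygen arrays without RNAi were at a mean of 599 for grd-3, whose change against control 3 and 4 was -1.92 (adjusted p = 0.0415), and the collagen median of oxygen against control was -0.39. On leaving out single arrays, the adjusted p passed 0.05 for col-12 without control 1, RNAi 1 or 2 (0.0584 to 0.0953), col-103 without control 1, 2, 3 or 4, oxygen 1, 3 or 4, RNAi 1, 2 or 3 (0.0508 to 0.0928) and grd-3 without control 1, RNAi 1, 2 or 3 (0.0613 to 0.103).

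Of 138 nuclear hormone receptor genes, 7 rose (5.07%) and none fell, and of 88 neuropeptide and insulin-like peptide genes, 5 rose (5.68%) and none fell. Of all genes, 2.64% rose. Against control 3 and 4, only 1 receptor gene and 2 peptide genes were called higher, where 1.5% of all genes were. The medians of these lists were 0.70 and 0.68 against all controls, and 0.32 and 0.37 against control 3 and 4. The gene nhr-115 was below its percentile in all controls and rose at least 4.07-fold (log2 3.39 ± 0.55, adjusted p = 0.0111). The FMRFamide-like peptide gene flp-9 read 269, 223, 222 and 135 on the controls and 533, 811 and 623 on the RNAi arrays (log2 1.65 ± 0.27, adjusted p = 0.0121), and the insulin-like gene ins-31 read 4.2, 11.1, 12.6 and 4.8 on the controls and 185, 46.3 and 72.9 on the RNAi arrays, at least 3.39-fold (adjusted p = 0.0211). For control 3 and 4 the changes were 2.80 for nhr-115 (0.0372), 1.90 for flp-9 (0.0424) and 3.46 for ins-31 (0.0637). On leaving out single arrays, the adjusted p passed 0.05 for nhr-115 without RNAi 2 or 3 (0.056 to 0.0665), flp-9 without RNAi 2 or 3 (0.0535 to 0.0731) and ins-31 without control 1, RNAi 1, 2 or 3 (0.0533 to 0.0952).

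Of 34 transthyretin-like genes, which encode small secreted nematode proteins, 3 rose (8.82%) and 1 fell (2.94%), against 2.64% and 0.9% of all genes. Beside ttr-23, the gene ttr-26 read 37.4, 21.9, 34.6 and 53.7 on the controls and 247, 351 and 291 on the RNAi arrays (log2 3.06 ± 0.39, adjusted p = 0.00351), while ttr-31 fell (log2 -1.31 ± 0.26, adjusted p = 0.0235). Among 20 genes that regulate skn-1, 1 was called (5%, against 2.64% of all genes), gsk-3, for a kinase that restrains SKN-1. It read 13.3, 26.4, 7.5 and 49.1 on the controls and 153, 129 and 141 on the RNAi arrays (log2 2.89 ± 0.68, adjusted p = 0.0491). The gsk-3 call ended with quantile normalization (2.38, adjusted p = 0.183) and with median centring (2.31, adjusted p = 0.211). Of ttr-26, ttr-31 and gsk-3, the first was called against control 3 and 4 too: the changes were 2.77 for ttr-26 (0.031), -1.41 for ttr-31 (0.108) and 2.87 for gsk-3 (0.116). Without single arrays the adjusted p passed 0.05 for ttr-31 without control 1, RNAi 1 or 3 (0.0646 to 0.115) and gsk-3 without control 1, 2 or 3, oxygen 1, 3 or 4, RNAi 1, 2 or 3 (0.0507 to 0.169).

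Several lists had no gene called against all controls by its brightest probe set. These were cytosolic ribosomal proteins (72 tested, median -0.12, 0.01 after quantile normalization), mitochondrial ribosomal proteins (57, -0.29), oxidative phosphorylation (54, -0.01) and glycolysis (23, 0.29, -0.29 after median centring). All tested genes had -0.01 after quantile normalization and -0.26 after median centring. Others were NADPH supply (13, 0.05), insulin signalling (19, 0.30), genes of the cell cycle and DNA replication (52, 0.11) and the DNA damage response (36, 0.06). The RNA interference machinery (42, 0.35) and the vitellogenins (5, -0.18) also had none. In the insulin signalling list a further probe set of the kinase gene akt-2 was called higher (log2 1.54 ± 0.34, adjusted p = 0.0399; 1.39 against control 3 and 4, adjusted p = 0.0735). A gene that was not called is not shown to be unchanged, since the spread among the controls was wide.

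**Figure D5:**
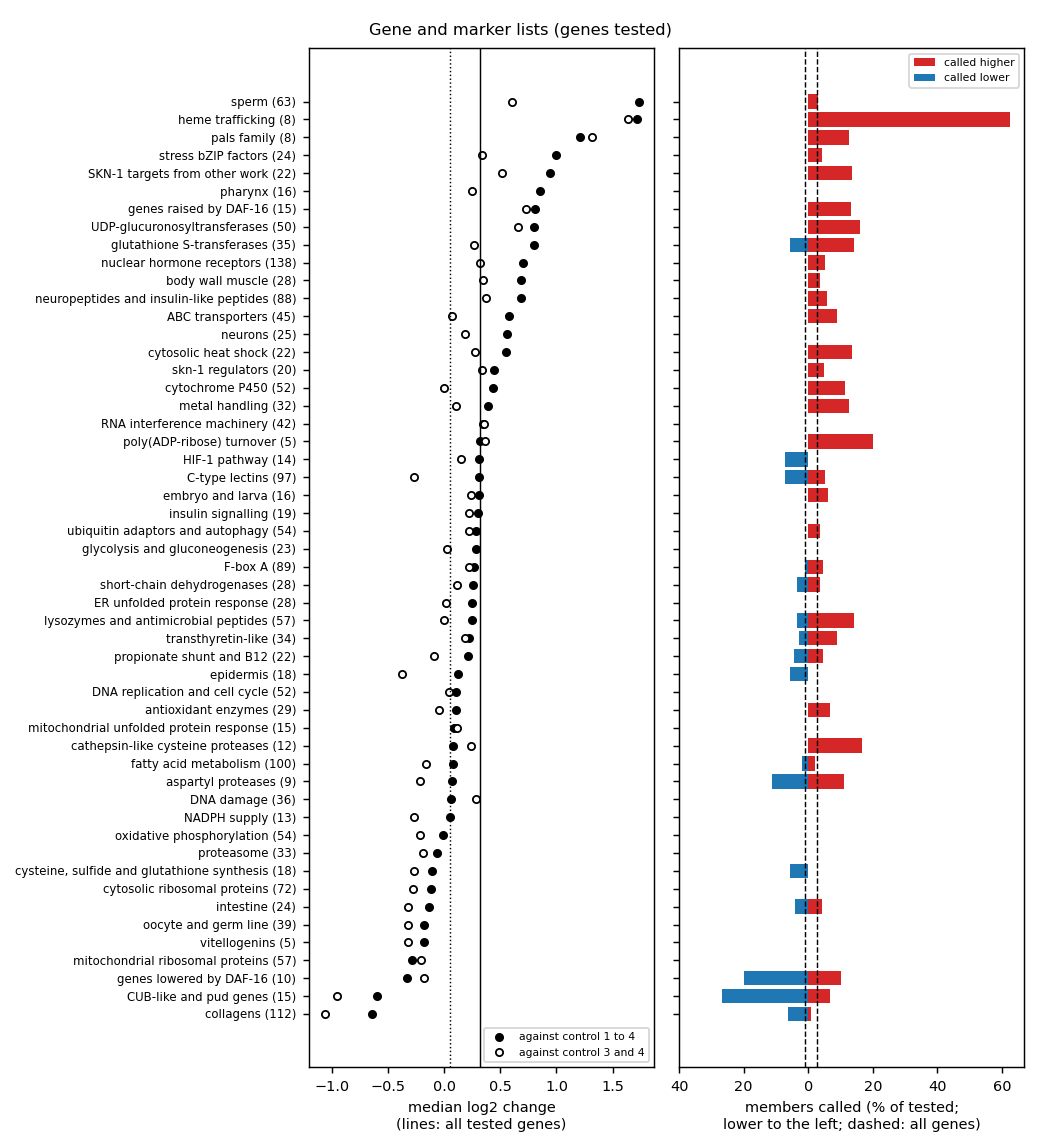
Median log2 change of the tested genes of each of 52 lists (left; filled, against all controls; open, against control 3 and 4; lines, all tested genes at 0.32 and 0.05) and the percentage of tested genes called higher or lower against all controls (right; dashed lines at 2.64% and 0.9%). Heme trafficking has the largest share of higher calls, and collagens have the lowest median.

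Markers of tissues were read as a check on the make-up of the worms. Sperm genes had the highest median of all lists, at 1.73 against all controls and 0.60 against control 3 and 4. Of 63 tested, 2 rose, spe-18 and spe-46 (3.17%, close to the 2.64% of all genes). Their summed signal ranged from 7182 to 46856 on the controls, from 8996 to 55655 on the oxygen arrays and from 40687 to 53795 on the RNAi arrays. It was 8292 and 7182 on control 1 and 2, 20891 on control 3 and 46856 on control 4, and the last lay within the RNAi range, so the difference moves with the array set. The gene spe-18, needed in sperm formation, read 24.2, 27, 46.5 and 32.5 on the controls, 109.9, 103 and 114.3 on the RNAi arrays and 11.4, 14.1, 17.3 and 11.9 on the oxygen arrays (log2 1.79 ± 0.26 against control, adjusted p = 0.00751; 1.49 against control 3 and 4, adjusted p = 0.0606). The part of sperm RNA in the other results was not tested.

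Summed signals of the other markers overlapped between groups for oocyte and germ line (88533 to 127179 on controls, 89706 to 95206 on RNAi arrays; 0 of 39 called) and intestine (23475 to 41038 and 29877 to 38033). In the intestine list cpr-4 rose and nhx-2, for an apical sodium-proton exchanger, fell (log2 -1.05 ± 0.23, adjusted p = 0.0393; -1.13 against control 3 and 4, adjusted p = 0.106), and a further probe set of the acid phosphatase gene pho-1 was called lower (log2 -1.64 ± 0.32, adjusted p = 0.0226; -1.23 against control 3 and 4, adjusted p = 0.135). Body wall muscle summed to 24433 to 42246 on controls and 40627 to 47849 on RNAi arrays, and the pharynx to 871 to 2269 and 1886 to 2226. Medians were 0.69 for muscle (24 of 28 genes above 0), 0.85 for pharynx and 0.32 for all tested genes. Against control 3 and 4 they were 0.34, 0.24 and 0.05. The 1 muscle gene called (3.57%, all genes 2.64%), unc-89, rose by 1.45 ± 0.33 (adjusted p = 0.0453), and by 1.00 against control 3 and 4 (adjusted p = 0.125). Another unc-89 probe set was called too (2.67 ± 0.32, adjusted p = 0.00267), and others were not. Nerve markers summed to 3788 to 6073 on controls and 6457 to 7045 on RNAi arrays and did not overlap, with the RNAi arrays higher. The oxygen arrays, at 4634 to 7403, overlapped both. None of the 25 tested nerve genes was called by its brightest probe set. Their median was 0.56 against all controls and 0.18 against control 3 and 4. Further probe sets of the muscle gene unc-97 (log2 1.51 ± 0.26, adjusted p = 0.0131; 1.86 against control 3 and 4, adjusted p = 0.0276) and the ankyrin gene unc-44 of the nerve list (log2 1.29 ± 0.30, adjusted p = 0.0475; 1.15 against control 3 and 4, adjusted p = 0.215) were called higher. The summed signal of epidermal markers was lower on every RNAi array (2667 to 3089) than on any control (3864 to 5610.2). It was also lower on the oxygen arrays (2427 to 2843). The sum holds grd-3, above, at a mean of 2267 on controls and 597 on RNAi arrays. Of 18 epidermal genes tested, grd-3 was the 1 called lower (5.56%, against 0.9% of all genes), and 10 had a log2 change above 0. Their median was 0.12 against all controls and -0.37 against control 3 and 4, where all tested genes had 0.32 and 0.05. Embryo and larval markers overlapped, and their called gene, tbb-6, for a tubulin, rose (log2 2.51 ± 0.37, adjusted p = 0.00702; 2.36 against control 3 and 4, adjusted p = 0.0637). These calls were lost (adjusted p in parentheses) for spe-46 without RNAi 1 or 2 (0.0831 to 0.0843) and nhx-2 without control 1, 2 or 3, oxygen 1, 3 or 4, RNAi 1, 2 or 3 (0.0502 to 0.175). That of unc-89 was lost without control 1 or 2, oxygen 1, 2 or 3, RNAi 1, 2 or 3 (0.0542 to 0.162).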

How the data were processed

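RNA from whole adult worms was hybridised to Affymetrix C. elegans arrays, with biotin-labelled RNA per the labels' protocols. The deposited values are MAS5 signal intensities on a linear scale, made with GCOS 1.4, per the submitters' processing notes. Scaling targets, background settings and detection calls are not given in the sources used here. Arrays were hybridised and scanned at 2 places, which the labels' protocols do not tie to arrays; the array sets used here (set 1, control and oxygen 1 and 2; set 2, the other 7 arrays) come from trimmed means and poly-A spike-in signals. The table holds 22625 probe sets, of which 77 are control probe sets and were left out. Of the table's probe sets, 20766 have 1 gene in the platform annotation, 887 several and 895 none; genes are named from probe sets with 1 gene only, and 20701 of the 20766 were found in the reference gene table. Of the named probe sets, 25 end in _s_at and 3 in _x_at and can measure similar genes. Those of asp-14, dod-24, gst-27, mrp-2, flp-9, F46F2.3 and Y16B4A.2 are among those in _s_at, and that of sqst-1 ends in _x_at.

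Signals were tested on the log2 scale (0.1, the smallest positive signal, replaced 1 signal of 0) with limma 3.58.1 in R 4.3.3, lmFit and eBayes, on probe sets at or above the 40th percentile of their own array on at least 3 of the 11 arrays. The model had the 3 groups as its term, all 11 arrays and no block (8 residual degrees of freedom); p-values are two-sided and adjusted by Benjamini-Hochberg over the 15393 tested probe sets, with a threshold of 0.05. The difference from control 3 and 4 was fitted on the 7 arrays of set 2. Precision is limited by how few arrays there are. Deviations of control and RNAi arrays with the same number correlated at -0.034, -0.118 and -0.107. The difference between array sets was not taken out first, and control 1 and 2 are in set 1 but all RNAi arrays in set 2. These values therefore cannot decide whether the numbers pair these groups. The procedure was also run on simulated data with independent noise and no difference between array sets, so that run does not cover the effect of the array sets. Each gene is represented by its brightest tested probe set (mean log2 signal). Named genes are skn-1 and gst-4, the 12 largest called increases and decreases whose groups do not overlap and whose difference from control 3 and 4 has the same sign, up to 4 called members of each list by adjusted p, and up to 8 genes in each direction called against both control and oxygen; gst-13, gst-38, gcs-1, sod-1, xbp-1, the uncalled heme genes and the hrg-11 genes, and listed genes called only by a further probe set, were added after their values were seen. The members and lists were chosen with earlier results of these data known, and the heat shock list and the list of genes lowered by DAF-16 were corrected after their values had been seen (aha-1 and the pud genes were taken out). Alternatives are given in the closing section.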

Additional observations from a re-analysis of the deposited data

Results flagged for a closer look

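In 7 of 109 control groups, each of 4 arrays, the array at one end stood apart from the other 3 by more than Dixon's 95% limit; chance alone flags about 1 group in 20. Control 3 was the highest for skn-1 probe set 194169_s_at, at 796.7 against 442.2 to 454.3 on the other controls, and for gst-30, at 48.6 against 17.8 to 19.9. It was the lowest for asp-8, at 16.8 against 32.3 to 33.8. Control 1 was the highest for gsto-1, at 134.6 against 75.6 to 76, and the lowest for sqst-1, at 245.2 against 326.6 to 342.7, and for tbb-6, at 45.6 against 73 to 79.4. Control 4 was the lowest for skr-5, at 3.3 against 15.7 to 21.5. The 6 called genes among these kept their direction without the array named.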

How the results depend on the processing

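Among the 105 named probe sets called against control, 31 were called under each of the 22 alternatives. No named call changed sign under any of them, and 57 of the 105 were also called against control 3 and 4. Of the named calls, 50 ended with median centring, 30 with quantile normalization and 9 with the array set as a block. Those ended by the block include F46F2.3, gcsh-1, hrg-4, mrp-2, zipt-2.1, dod-3 and dod-22. The count of probe sets that rose (383) and fell (131) was 110 and 105 with median centring, 207 and 220 with quantile normalization, 195 and 67 with no filter on low signal, 228 and 58 on the 7 arrays of set 2, and 457 and 242 with the array set as a block. With a filter at the 60th percentile 230 fell, and with an intensity trend and robust spread 204 fell. With the replicate block the counts were 1365 and 305, although the numbers are not known to pair control and RNAi arrays. The block ended 1 named call, of gcsh-1 (adjusted p = 0.0542). Leaving out 1 array at a time gave 87 (without RNAi 2) to 490 (without control 3) that rose and 32 (without RNAi 2) to 146 (without control 4) that fell, with 193 and 67 without control 1. Fewer arrays give fewer degrees of freedom, and the cause of the other moves was not tested. Against control 3 and 4, 1.48% of tested probe sets rose and 0.377% fell; these shares were 0.111% and 0.00887% with no filter and 0.89% and 0.156% on control 3, control 4 and the RNAi arrays alone. On log2(signal + 16) 0.728% fell. Leaving out 1 array gave 0.123% (without RNAi 3) to 10.9% (without control 3) that rose and 0.026% (without RNAi 1) to 2.25% (without control 3) that fell, with 0.669% and 0.0845% without control 4. Median centring lowered the medians of all lists by the same amount, and that of all tested genes from 0.32 to -0.26. It therefore left the lists unmoved relative to each other, although 43 of the 52 medians moved by more than their spread between control arrays. With quantile normalization 10 moved by more than that spread, and the median of all tested genes was -0.01. Signals near the 40th percentile of an array limit folds to lower bounds.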

Other observations

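The groups named here were picked out after their values had been seen, so their counts are descriptions. In the glycine cleavage system, which breaks down glycine in mitochondria, 2 of 5 tested genes were called lower in the RNAi arrays than in control, against 0.9% of all genes. These were gcsh-1, above, and gldc-1, at 580.6 ± 181 in controls (SD, n = 4), 236 ± 52.8 in oxygen arrays (SD, n = 4) and 230.4 ± 34.5 in RNAi arrays (SD, n = 3). The log2 change of gldc-1 was -1.30 ± 0.28 (limma adjusted p = 0.0371) against all controls and -1.46 (adjusted p = 0.0951) against control 3 and 4, where none of the 5 was called. Of 18 tested subunits of the V-ATPase, the proton pump of lysosomes, 2 were called lower (0.9% of all genes were), with log2 changes of -1.0 ± 0.22 for vha-10 (adjusted p = 0.0412) and -0.99 ± 0.19 for vha-20 (adjusted p = 0.0211). The median of the 18 was -0.38 against all controls and -0.73 against control 3 and 4, where none was called by its brightest probe set. A further probe set of vha-13 was called lower against all controls (log2 -1.39 ± 0.25, adjusted p = 0.0178) and against control 3 and 4 (-1.66, adjusted p = 0.037). The brightest probe set of vha-13 was not called and changed little (log2 -0.25 against all controls, adjusted p = 0.762). Of 12 tested O-acyltransferase homologs, 3 were called higher against all controls (2.64% of all genes were) and also against control 3 and 4 (1.5% of all genes were). Their controls were all below the 40th percentile, which gives folds of at least 2.24 for oac-7, 1.75 for oac-31 and 10.0 for oac-32. On leaving out single arrays, the adjusted p passed 0.05 for gldc-1 without control 1 or 2, oxygen 1 or 4, RNAi 1, 2 or 3 (0.0504 to 0.157), vha-10 without control 1, 2 or 3, oxygen 1 or 3, RNAi 1, 2 or 3 (0.0528 to 0.176), vha-20 without control 2, RNAi 1, 2 or 3 (0.0522 to 0.103), oac-7 without control 1 or 2, RNAi 1, 2 or 3 (0.0897 to 0.154), oac-31 without RNAi 2 or 3 (0.0638 to 0.0731) and oac-32 without control 1 or 2, RNAi 1, 2 or 3 (0.0679 to 0.128). Of 106 tested F-box B and C genes, 4 were called higher (2.64% of all genes were) and none lower, and none was called against control 3 and 4.

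Tested neighbours on a chromosome formed 4 runs of 3 genes that were all called in the same direction. Besides the F01D5 genes of the report, these were fbxa-182, F42G2.5 and F42G2.2 (log2 changes of 2.49 to 4.59), Y51B9A.9, Y51B9A.8 and Y51B9A.6 (2.18 to 7.12), and Y58A7A.3, Y58A7A.4 and Y58A7A.5 (3.93 to 4.88). Against control 3 and 4 the same genes had log2 changes of 2.66 to 3.76, 2.23 to 6.15 and 4.19 to 4.65.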
